A study of Mus musculus with 6 samples.

Results

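The 6 arrays of this study were divided on the signal of 1 gene, Nr1d1, which encodes the nuclear receptor Rev-erbα. On log2 intensity after quantile normalization, which gives every array the same distribution of values, 3 of the 6 arrays lay at 6.8 or more, and the other 3 lay under it. The arrays at 6.8 or more, called the upper arrays here, carried the labels Rev-/- 1, Rev-/- 3 and WT 3. Those under 6.8, called the lower arrays, carried the labels Rev-/- 2, WT 1 and WT 2. This grouping was read from the data and is not the genotype label. It is therefore given as a description, with no test, mean or SD over the upper and lower arrays. All genes other than Nr1d1 were described across it, and counts over all genes include Nr1d1 as well.

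By the methods, the arrays came from primary myoblasts, the proliferating muscle precursor cells grown from satellite cells of mouse skeletal muscle. The transcripts measured met this description only in part, as given below. The label Rev-/- stands for mice lacking Rev-erbα in every tissue, made from a gene-targeted embryonic stem cell clone, and WT for wild-type littermates, with 3 arrays per label. All 6 samples were labelled C57BL/6, male and 6 weeks old. All were described as kept in growth medium with serum and bFGF on collagen-coated plates. The methods call the samples of a label independent, and nothing states further that each came from its own animal.

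Rev-erbα is a transcriptional repressor that binds heme and recruits the corepressor NCoR with HDAC3 to DNA elements it shares with the ROR activators. In the circadian clock, the activators Clock and Bmal1 (gene symbol Arntl) bind E-boxes in the promoters of Nr1d1, Per1 and Dbp, and Rev-erbα in turn represses Arntl. A gene repressed by Rev-erbα and a gene driven by the same E-box activators as Nr1d1 thus follow different phases of the day.

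The promoters of Nr1d1 and of the clock genes Dbp and Per1 are shown because these genes share upstream activators, and because Dbp and Per1 lay on the opposite side from Nr1d1 on all 6 arrays. Each window holds the 250 bases before a RefSeq start site (build GRCm38.p6), read 5′ to 3′ on the strand of the gene. Capitals mark matches, on either strand, to the palindromic E-box CACGTG and to AGGTCA, the core hexamer of the Rev-erb and ROR element, whose reverse complement is TGACCT; the motifs do not overlap.
Nr1d1 (chr11:98775378-98775627, minus strand): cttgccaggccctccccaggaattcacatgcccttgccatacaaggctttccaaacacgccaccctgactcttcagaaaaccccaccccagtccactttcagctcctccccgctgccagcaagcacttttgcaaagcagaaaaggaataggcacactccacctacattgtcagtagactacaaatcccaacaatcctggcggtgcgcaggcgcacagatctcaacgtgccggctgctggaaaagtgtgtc
Dbp (chr7:45704997-45705246, plus strand): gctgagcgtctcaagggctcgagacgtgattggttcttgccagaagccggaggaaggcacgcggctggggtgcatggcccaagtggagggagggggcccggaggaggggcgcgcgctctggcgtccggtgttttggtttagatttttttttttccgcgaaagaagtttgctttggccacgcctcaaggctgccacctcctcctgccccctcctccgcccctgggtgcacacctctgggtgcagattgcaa
Per1 (chr11:69098699-69098948, plus strand): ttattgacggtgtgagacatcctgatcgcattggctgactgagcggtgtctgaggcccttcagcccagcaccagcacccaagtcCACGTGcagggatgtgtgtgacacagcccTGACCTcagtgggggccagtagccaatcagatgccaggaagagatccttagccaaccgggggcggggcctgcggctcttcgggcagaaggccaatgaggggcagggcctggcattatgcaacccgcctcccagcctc
This Per1 window, which was chosen for its matches, held 1 E-box and 1 AGGTCA hexamer, and the window of the other Per1 start site held neither. The Nr1d1 and Dbp windows, and both Arntl windows, held neither in these letters. Among 32851 RefSeq promoter windows of the same length, 1978 (6.02%) held CACGTG and 4607 (14.0%) held AGGTCA. A match is a description of the letters and not a measured site.

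Nr1d1 had a single probe. Its log2 intensity was 7.01 on Rev-/- 1, 7.14 on Rev-/- 3 and 7.22 on WT 3, against 6.51 on Rev-/- 2, 6.60 on WT 1 and 6.54 on WT 2. The deposited intensities were 134, 135.9 and 148.6 on these upper arrays and 87.3, 98.7 and 94.5 on the lower arrays. The upper and lower arrays were chosen by these values, which support nothing further. The closest to the threshold were Rev-/- 1, inside the upper arrays at 7.01, and WT 1, among the lower arrays at 6.60. The limit taken for background was 6.71, so the probe lay above background on the upper arrays and not above it on the lower arrays. The targeted gene therefore went against the label of 2 Rev-/- arrays, which lay above background, and of 2 WT arrays, which did not. Every array is accordingly named by its label, as the array labelled Rev-/- or WT. Whether the probe lies in the deleted part of the gene was not stated in any source consulted, and a probe outside it checks no label.

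Other genes also bore on the labels. Xist, the RNA that silences an X chromosome in female cells, was at 6.62 on Rev-/- 1, 10.76 on Rev-/- 3 and 10.02 on WT 3, against 9.73 on Rev-/- 2, 10.25 on WT 1 and 9.77 on WT 2. Eif2s3y, a translation factor gene of the Y chromosome, was at 9.09, 6.82 and 8.57 on the upper arrays and at 8.27, 6.72 and 8.40 on the lower arrays. Xist was thus high on 5 of the 6 arrays labelled male, and Eif2s3y was near background on Rev-/- 3 and WT 1 alone. On Rev-/- 2, WT 2 and WT 3 both were well above the background limit. Neither gene separated the upper from the lower arrays.

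The myoblast label was met in part. Myod1, the myogenic determination factor, lay between 7.84 and 8.08 on all arrays, and Pax7 and Myf5, which mark satellite cells and their early progeny, were not above background on any. Sarcomeric and red cell transcripts were bright on all 6 arrays, with Acta1, skeletal α-actin, between 14.31 and 14.56 and Hba-a1, an α-globin, between 14.22 and 14.60. Pvalb, a calcium buffer of fast fibres, lay between 13.42 and 14.42. In such bulk RNA, fewer cells of a type and less RNA per cell cannot be told apart.

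Rev-/- 1 stood apart from the rest. Its mean correlation with the other arrays, across all kept probes of 1 symbol, was 0.9777, against 0.9882 to 0.9899 for the others. Transcripts of neutrophil granules and cartilage were brightest on it. S100a8, a calcium-binding protein of neutrophils, was at 13.06 on Rev-/- 1, 10.24 on Rev-/- 3 and 9.68 on WT 3, against 7.96 on Rev-/- 2, 7.52 on WT 1 and 10.72 on WT 2. Mmp13, a collagenase of hypertrophic cartilage and bone, was at 12.47, 7.21 and 7.70 on the upper arrays and at 6.86, 6.91 and 7.05 on the lower arrays. Counts of separated genes, other than those at a set gap, are accordingly given with and without Rev-/- 1. The nearest array of each array lay on its own side of Nr1d1, at correlations across probes of 0.9813 for Rev-/- 1 with WT 3, 0.9931 for Rev-/- 3 with WT 3, 0.9936 for Rev-/- 2 with WT 2 and 0.9921 for WT 1 with Rev-/- 2. Beyond the nearest arrays the sides did not hold. WT 2 correlated at 0.9928 with WT 3, an upper array, and at 0.9914 with WT 1, a lower array. Rev-/- 1 correlated at 0.9788 with Rev-/- 3, an upper array, and at 0.9787 with WT 2, a lower array. Probes are not independent replicates, and these are descriptions.

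A gene was said to separate the arrays where all 3 upper arrays lay beyond all 3 lower arrays, and its gap is the log2 distance between the closest upper and lower array, negative where the upper arrays were lower. Of 11892 genes measured, 1788 (15%) separated the arrays, 869 (7.31%) with the upper arrays higher and 919 (7.73%) with them lower. Nr1d1, by which the arrays were divided, separates them by construction. It is included in the 1788, in the 869 and in the shares of all genes given below. Gaps were mostly small, with a median of 0.05 among the genes higher on the upper arrays and of -0.04 among those lower. A gap of at least 0.25 was held by 40 genes higher (0.336%), Nr1d1 among them, and 31 lower (0.261%). At least 1.5-fold lay between every upper and every lower array for 3 genes higher (0.0252%) and 5 lower (0.042%). Without Rev-/- 1, 1461 of the same genes were higher (12.3%) and 1383 lower (11.6%), since fewer arrays overlap less often. Other kept probes of the separated genes numbered 1072, of which 229 (21.4%) separated the arrays the same way and 297 (27.7%) had middle values that differed in the opposite direction.

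The labels themselves gave no called gene. Compared by label, Rev-/- over WT, 0 of 11892 genes (0%) passed limma at a Benjamini-Hochberg adjusted p of 0.05 and 1.5-fold, the smallest adjusted p was 0.997, and 377 genes had an unadjusted p of at most 0.05. By label, 969 genes (8.15%) did not overlap, against the 15% that separated the upper from the lower arrays. A gene cannot do both, since each side of the Nr1d1 threshold holds arrays of both labels. The Nr1d1 probe itself differed by 0.11 log2 (SE 0.22, limma adjusted p = 0.997), Rev-/- over WT, and 0 members of any list described here were called by label.

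**Figure D1:**
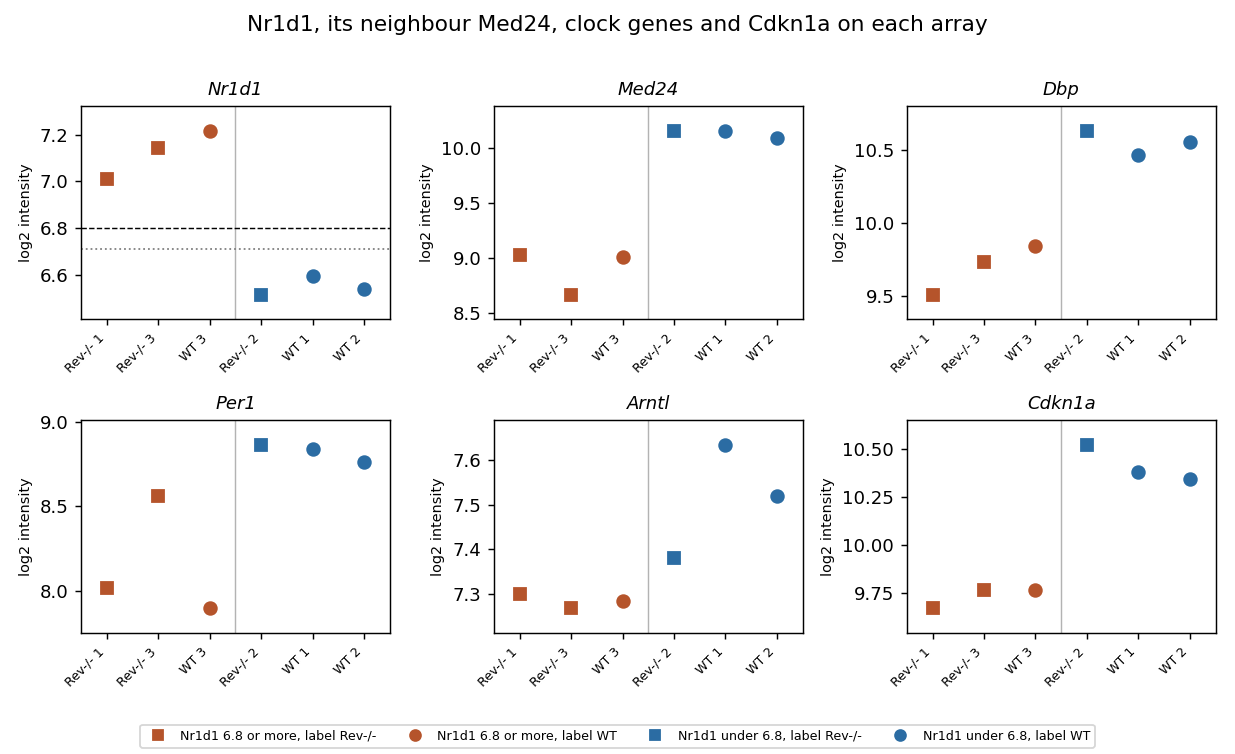
Log2 intensity (y axis) of 6 genes on each array (x axis), squares for arrays labelled Rev-/- and circles for those labelled WT, orange for the 3 upper and blue for the 3 lower arrays. In the Nr1d1 panel the dashed line is the threshold of 6.8 and the dotted line the background limit of 6.71; the other 5 genes were lower on all 3 upper arrays, by 1.06 for Med24 at the closest pair of arrays.

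Clock genes other than Nr1d1 lay lower on the upper arrays where they separated them at all. Of 17 measured members of 22 listed, 0 were higher and 3 were lower on the upper arrays (17.6%, against 7.73% of all genes). Without Rev-/- 1, 0 were higher and 4 lower (23.5%, against 11.6%), so the list rested on few members. The median middle difference, the middle upper array minus the middle lower array, was -0.11, against -0.0019 for all genes. Dbp, a PAR bZIP output factor of the clock, was at 9.51 on Rev-/- 1, 9.73 on Rev-/- 3 and 9.84 on WT 3, against 10.63 on Rev-/- 2, 10.47 on WT 1 and 10.56 on WT 2. All 3 upper arrays were below all 3 lower arrays, with a gap of -0.62. Per1, a repressor of Clock and Bmal1, was at 8.01, 8.56 and 7.89 on the upper arrays and at 8.86, 8.84 and 8.76 on the lower arrays. Its gap was -0.20, or -0.75 without Rev-/- 3 and -0.10 as the mean of its kept probes, and its 2 other kept probes separated the arrays the same way. Arntl was at 7.30, 7.27 and 7.28 on the upper arrays and at 7.38, 7.64 and 7.52 on the lower arrays, with a gap of -0.08 that closed with array medians aligned and without normalization and was -0.22 without Rev-/- 2. Dbp, Per1 and Arntl thus lay opposite to Nr1d1, and the part of Rev-erbα or of shared activators in this was not tested.

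The remaining clock genes overlapped between the upper and lower arrays. Nr1d2, which encodes the related receptor Rev-erbβ, was at 7.90, 8.11 and 8.0 on the upper arrays and at 8.18, 8.10 and 8.02 on the lower arrays. Clock was at 9.03, 8.70 and 8.97 on the upper arrays and at 9.14, 9.02 and 9.06 on the lower arrays, and without Rev-/- 1 its arrays no longer overlapped. Rora, an activator at the same DNA element as Rev-erbα, was at 8.19, 8.70 and 8.56 on the upper arrays and at 8.56, 8.84 and 8.82 on the lower arrays. Per2 was at 8.21, 8.03 and 8.17 on the upper arrays and at 7.94, 8.50 and 8.33 on the lower arrays, so that Rev-/- 2 held the lowest value. Ciart, Cry2, Csnk1d, Csnk1e, Bhlhe40, Hlf, Npas2, Per3, Rorb and Tef overlapped too.

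The genes beside Nr1d1 on chromosome 11 did not lie on one side. Among the 20 coding genes nearest in gene order, 10 on each side, 11 were measured, of which 3 were higher and 1 was lower on the upper arrays. Across all genes 7.31% were higher and 7.73% lower. Without Rev-/- 1 the counts were 4 and 2, against 12.3% and 11.6% of all genes. With so few neighbours measured, these counts are a description alone. Thra, which encodes thyroid hormone receptor α and overlaps Nr1d1 on the opposite strand, was at 7.0, 7.12 and 6.92 on the upper arrays and at 6.65, 6.73 and 6.79 on the lower arrays. Casc3, of the exon junction complex, and Wipf2, an actin regulator, were higher with gaps of 0.05 and 0.10. Med24, a subunit of the Mediator complex that lies 2 genes from Nr1d1, was at 9.02 on Rev-/- 1, 8.67 on Rev-/- 3 and 9.01 on WT 3, against 10.15 on Rev-/- 2, 10.15 on WT 1 and 10.09 on WT 2. Its gap of -1.06, or 2.09-fold at the closest pair, was the widest of all genes lower on the upper arrays, and it had 1 kept probe. On chromosome 11 as a whole, 72 genes were higher and 75 lower of 988 measured, and without Rev-/- 1 these were 123 and 120.

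Macrophage genes formed the list with the largest share on one side. On the upper arrays 12 of 19 measured members were higher and 0 were lower, against 7.31% and 7.73% of all genes, and without Rev-/- 1 these were 18 and 0. Their median middle difference was 0.57. Lyz2, lysozyme of macrophages and granulocytes, was at 9.73 on Rev-/- 1, 10.62 on Rev-/- 3 and 10.21 on WT 3, against 8.40 on Rev-/- 2, 8.42 on WT 1 and 8.65 on WT 2. At this brightest probe the upper arrays were thus at least 2.11-fold above each lower array. The second kept probe of Lyz2 separated them the same way, and the gap of 1.08 was 0.81 as the mean of its kept probes. Lyz1, a near-identical lysozyme whose probe may read both transcripts, was at 11.88, 12.66 and 12.58 on the upper arrays and at 10.40, 10.38 and 10.76 on the lower arrays. Fcer1g, the signalling γ chain of Fc receptors, was at 9.84, 10.17 and 9.99 on the upper arrays and at 9.10, 9.14 and 9.06 on the lower arrays. These are the 3 genes that were higher by 1.5-fold between every pair of arrays. Fcer1g no longer was with array medians aligned or without normalization, where its gap of 0.70 became 0.40.

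The defining surface and complement genes of macrophages lay the same way with smaller gaps. Csf1r, the receptor for the macrophage growth factor Csf1, was at 8.19, 8.44 and 8.34 on the upper arrays and at 7.87, 7.78 and 7.80 on the lower arrays. Adgre1, an adhesion receptor that marks mouse macrophages, was at 8.15, 9.0 and 9.05 on the upper arrays and at 7.72, 7.59 and 7.95 on the lower arrays, with Rev-/- 1 the closest to them. C1qb, of the first complement component, was at 8.85, 9.68 and 9.48 on the upper arrays and at 8.63, 8.67 and 8.77 on the lower arrays. C1qc, Cd14, Cd163, Fcgr1, Ly86 and Mrc1 overlapped with Rev-/- 1 and no longer without it, and Ctss, a lysosomal protease, overlapped either way. Ptprc, Itgam, Ccr2 and Msr1, a leukocyte phosphatase, an integrin, a chemokine receptor and a scavenger receptor, were not above background on any array. The median of the measured members, each centred on its mean over the 6 arrays, was -0.09 on Rev-/- 1, 0.44 on Rev-/- 3 and 0.27 on WT 3, against -0.22 on Rev-/- 2, -0.24 on WT 1 and -0.23 on WT 2. The list's level was therefore near that of the lower arrays on Rev-/- 1 and above it on the other upper arrays.

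Among the 12 genes of widest gap higher on the upper arrays, 6 were in the white cell lists, and among the 12 of widest gap lower, 0 were. The white cell lists, of macrophage, neutrophil, MHC class II and lymphocyte genes, held 19, 11, 7 and 5 of the 11892 genes measured. Cd52, a small surface glycoprotein of leukocytes, was at 8.52, 7.85 and 7.76 on the upper arrays and at 7.05, 7.14 and 7.21 on the lower arrays. Coro1a, an actin-binding protein of leukocytes, was at 9.84, 8.66 and 8.65 on the upper arrays and at 7.78, 7.82 and 8.14 on the lower arrays. Both stood in the lymphocyte list, of which 2 of 5 measured members were higher and 0 lower, with and without Rev-/- 1, and Cd3e, which defines T cells, was above background on 1 array at most. Laptm5, a lysosomal membrane protein of blood cells, was at 11.82, 11.36 and 11.36 on the upper arrays and at 10.75, 10.47 and 10.87 on the lower arrays. Tyrobp, a signalling adaptor of myeloid cells, and the phosphatase Ptpn6 had gaps of 0.46 and 0.44. Gmfg, an actin regulator of blood cells, and Selenop, a selenium carrier, had gaps of 0.53 and 0.52.

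Neutrophil genes did not separate the arrays, since WT 2 had a higher median of the list than Rev-/- 3 and WT 3. Of 11 measured members 0 were higher and 0 lower, with or without Rev-/- 1, although their median middle difference was 0.25. S100a9, the partner of S100a8, was at 11.61, 8.57 and 8.15 on the upper arrays and at 7.09, 6.90 and 9.08 on the lower arrays. Camp, an antimicrobial peptide of granules, was at 10.26, 7.53 and 7.36 on the upper arrays and at 6.60, 6.70 and 7.5 on the lower arrays. The median of the list, centred in the same way, was 1.86 on Rev-/- 1, -0.18 on Rev-/- 3 and -0.34 on WT 3, against -0.59 on Rev-/- 2, -0.62 on WT 1 and 0.01 on WT 2. The part of white cell RNA in the clock and other differences was not tested. Antigen presentation genes of MHC class II gave 1 higher and 0 lower of 7, 1 and 1 without Rev-/- 1, and red cell genes 1 higher and 0 lower of 17 either way. Across all genes the shares were 7.31% higher and 7.73% lower, and 12.3% and 11.6% without Rev-/- 1.

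Endothelial genes also lay on the higher side more often than all genes. On the upper arrays 6 of 18 were higher (33.3%, against 7.31% of all genes) and 2 lower (11.1%, against 7.73%). Without Rev-/- 1 these were 8 (44.4%, against 12.3%) and 2 (11.1%, against 11.6%). Aqp1, a water channel, was at 12.35, 11.73 and 11.69 on the upper arrays and at 11.38, 11.21 and 11.47 on the lower arrays. Egfl7, secreted by endothelial cells, was at 11.67, 11.64 and 11.59 on the upper arrays and at 11.42, 11.34 and 11.36 on the lower arrays. Emcn, Vwf, Pecam1 and Cdh5 were also higher, with gaps of 0.04 to 0.11, whereas Robo4 and Lyve1 were lower with gaps of -0.20 and -0.13. The list's count fell to 2 when only array medians were aligned and to 2 without normalization. The count of all genes higher also fell, from 869 to 444 and 284.

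Mmp2, a gelatinase of connective tissue, was at 11.81, 11.29 and 11.42 on the upper arrays and at 10.78, 10.78 and 10.61 on the lower arrays. The lists of stromal cells as a whole were near the share of all genes or rested on few members: 1 of 15 fibroblast genes, 2 of 12 mural genes and 2 of 13 bone and cartilage genes were higher and 0 were lower. The 2 mural genes, Notch3 and Pdgfrb, were only 1.001-fold and 1.004-fold apart at the closest pair. Without Rev-/- 1 the counts higher were the same, and 1 fibroblast gene and 1 bone and cartilage gene were lower. For adipocyte and Schwann cell genes, 0 of 11 and 0 of 7 separated the arrays, and without Rev-/- 1 1 adipocyte gene was higher and 1 lower. Of 19 collagen genes 2 were higher (10.5%) and 0 lower, and 2 and 2 without Rev-/- 1 (10.5% each). Across all genes the shares were 7.31% higher and 7.73% lower, and 12.3% and 11.6% without Rev-/- 1.

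**Figure D2:**
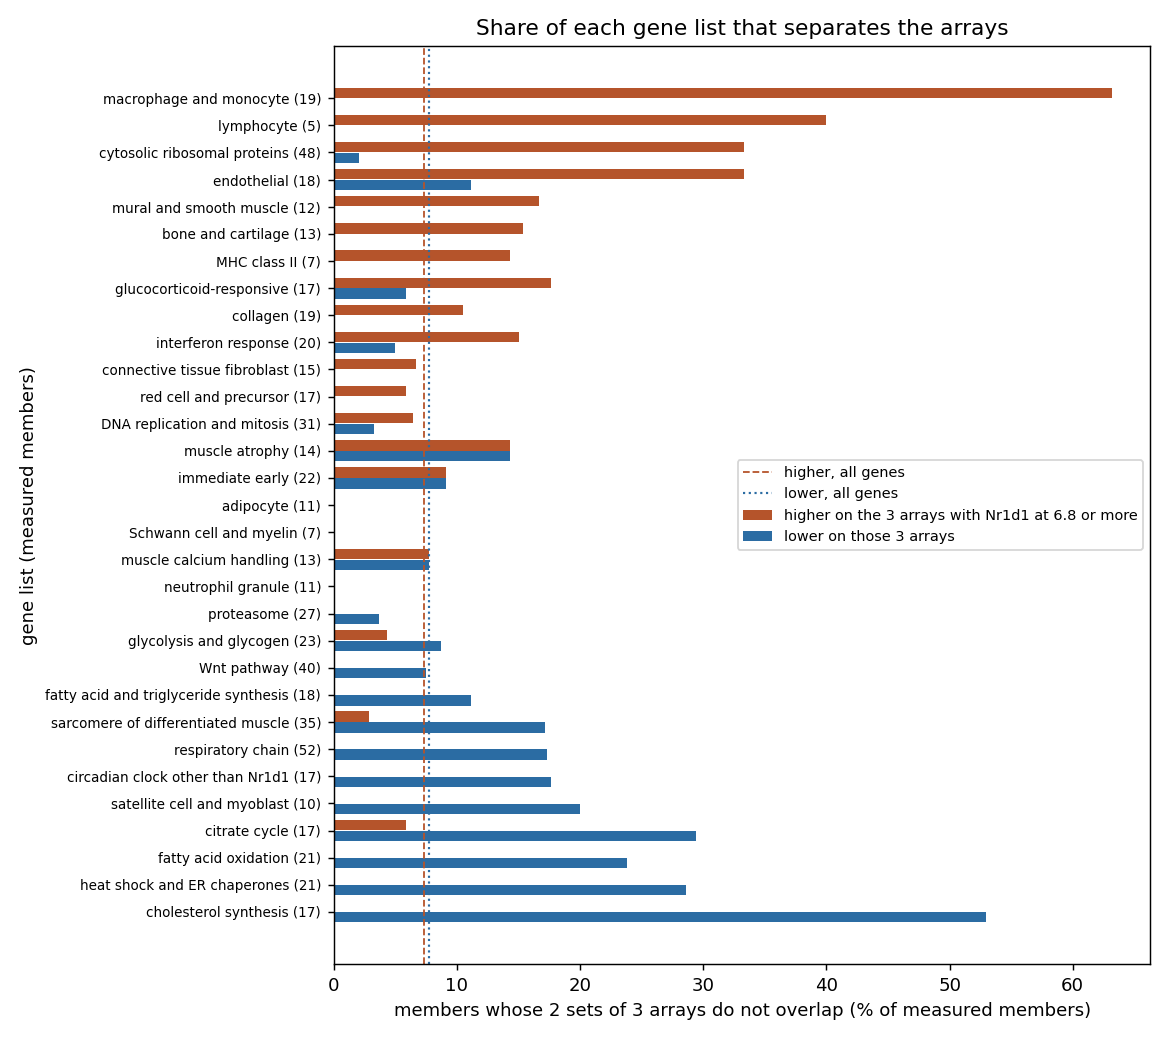
Share of the measured members of each gene list (x axis, percent) that was higher (orange) or lower (blue) on all 3 upper arrays than on all 3 lower arrays, with the number of measured members after each name on the y axis. The dashed line marks the 7.31% of all genes that were higher and the dotted line the 7.73% that were lower; macrophage genes reach furthest to the higher side and cholesterol genes to the lower side.

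Cholesterol genes made up the list most often lower on the upper arrays. Of 17 measured members 9 were lower (52.9%) and 0 higher, with and without Rev-/- 1. Of all genes, 7.73% were lower, and 11.6% without Rev-/- 1. The median middle difference of the list was -0.15. Sqle, squalene epoxidase, an enzyme that limits the rate of sterol synthesis, was at 8.47 on Rev-/- 1, 8.52 on Rev-/- 3 and 8.59 on WT 3, against 9.20 on Rev-/- 2, 9.32 on WT 1 and 9.18 on WT 2. It was lower by 1.5-fold between every pair of arrays, and its other kept probe lay the same way. Its gap of -0.59 was under 1.5-fold with array medians aligned (-0.40), without normalization (-0.32) and as the mean of its kept probes (-0.41). Cyp51, lanosterol demethylase, was at 7.39, 7.67 and 7.63 on the upper arrays and at 8.11, 7.99 and 7.94 on the lower arrays. Srebf2, the transcription factor that drives these genes, was at 7.96, 7.98 and 8.20 on the upper arrays and at 8.42, 8.27 and 8.37 on the lower arrays. Fdps, Stard4, Insig1, Msmo1, Tm7sf2 and Dhcr7, of isoprenoid synthesis, sterol transport, feedback and the late steps of the pathway, were lower with gaps of -0.13 to -0.02. The count was 6 with array medians aligned and 3 without normalization, of 16 measured in each. The count of all genes lower also fell, from 919 to 673 and 293. Synthesis of fatty acids and triglycerides gave 2 lower and 0 higher of 18, 4 and 1 without Rev-/- 1, with Lpin1, a phosphatidate phosphatase, at 8.13, 8.73 and 8.23 on the upper arrays and at 8.77, 8.80 and 8.83 on the lower arrays.

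**Figure D3:**
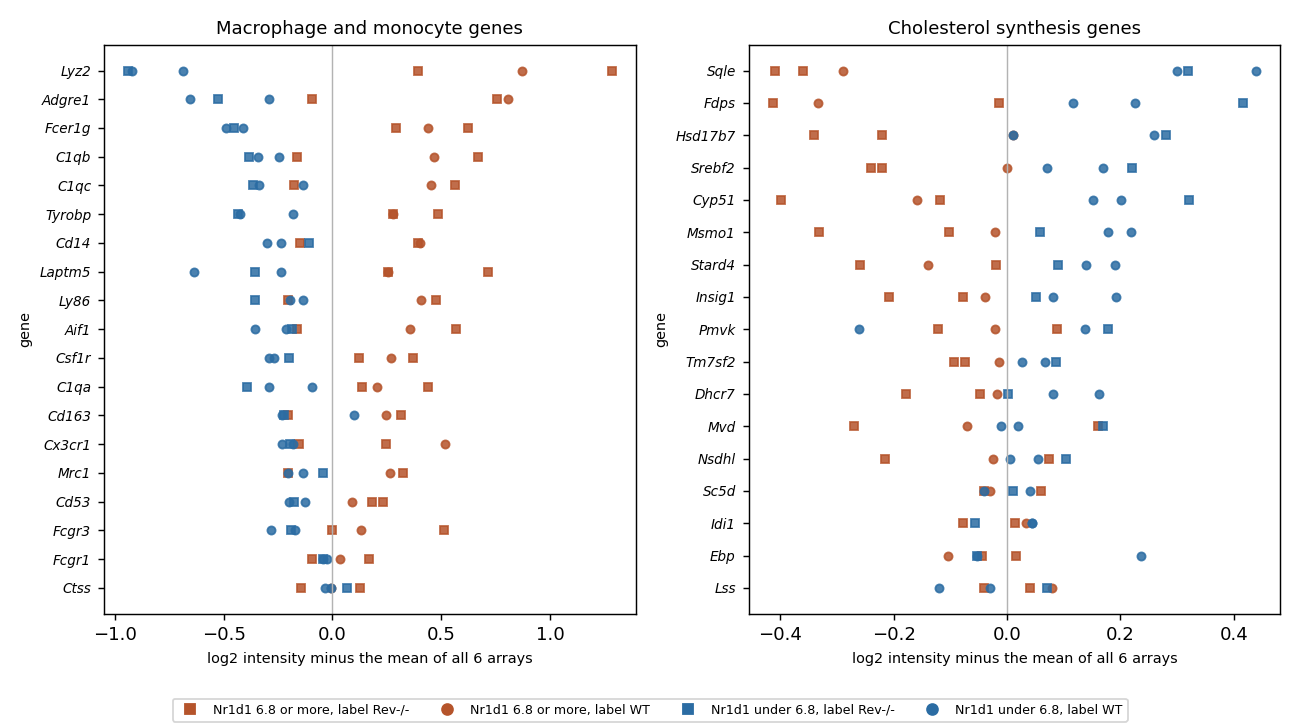
Log2 intensity of each macrophage gene (left) and cholesterol gene (right) on each array, minus the mean of the gene over all 6 arrays (x axis), with genes down the y axis by the difference of their middle arrays. Squares are arrays labelled Rev-/- and circles those labelled WT, orange for upper and blue for lower arrays; 12 of 19 macrophage genes were higher and 9 of 17 cholesterol genes lower on all 3 upper arrays.

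Mitochondrial genes were lower on the upper arrays more often than higher, with small gaps. Of the respiratory chain 9 of 52 were lower (17.3%) and 0 higher. For fatty acid oxidation these were 5 of 21 (23.8%) and 0, and for the citrate cycle 5 of 17 (29.4%) and 1. Of all genes, 7.73% were lower and 7.31% higher. The median middle differences of the 3 lists were -0.12, -0.22 and -0.21. Without Rev-/- 1 the counts lower were 9, 5 and 5 and those higher 2, 0 and 1. Of all genes, 11.6% were then lower and 12.3% higher. Atp5c1, the γ subunit of ATP synthase, was at 11.67, 11.59 and 11.86 on the upper arrays and at 12.26, 12.20 and 12.18 on the lower arrays. Acadl, which opens the oxidation of long-chain fatty acids, was at 8.99, 9.58 and 9.53 on the upper arrays and at 9.84, 9.68 and 9.90 on the lower arrays. Mdh2, mitochondrial malate dehydrogenase, was at 10.38, 10.72 and 10.61 on the upper arrays and at 10.82, 10.88 and 10.94 on the lower arrays. Rev-/- 1 held the lowest value of Acadl and Mdh2. The respiratory chain count was 26 without Rev-/- 3, 20 without WT 1, 14 without WT 3 and 14 with array medians aligned. That of fatty acid oxidation was 14 without Rev-/- 3, 11 without WT 1 and 8 with array medians aligned, and it was 2 of 21 where each gene was the mean of its kept probes. That of the citrate cycle was 9 without Rev-/- 3, 8 without WT 1 and 1 without normalization. Glycolysis gave 1 higher and 2 lower of 23, 3 and 3 without Rev-/- 1.

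Chaperones were lower too. Of 21 heat shock and endoplasmic reticulum chaperone genes 6 were lower (28.6%, against 7.73% of all genes) and 0 higher. Without Rev-/- 1 these were 7 (33.3%, against 11.6%) and 0. Calr, calreticulin, a calcium-binding chaperone of the endoplasmic reticulum, was at 8.0, 8.21 and 8.16 on the upper arrays and at 9.02, 8.96 and 8.85 on the lower arrays, 1.56-fold apart at the closest pair. Hspd1, a mitochondrial chaperonin, was at 10.80, 10.83 and 10.79 on the upper arrays and at 10.88, 11.0 and 11.05 on the lower arrays, a gap of -0.05. Calr thus stood well apart from the other members. Hspa5, 1 of the 6, was not above background on any upper array and passed the filter on dim probes through the lower arrays, and 5 were lower among genes above background on all 6 arrays. The count was 3 with array medians aligned and 2 without normalization, where that of all genes lower fell from 919 to 673 and 293.

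Cytosolic ribosomal protein genes lay the other way. Of 48 measured 16 were higher (33.3%, against 7.31% of all genes) and 1 lower on the upper arrays. Without Rev-/- 1 these were 19 (39.6%, against 12.3%) and 1. Rpl12 was at 12.88, 12.88 and 12.90 on the upper arrays and at 12.63, 12.52 and 12.67 on the lower arrays, and Rps19 was at 13.53, 13.36 and 13.51 on the upper arrays and at 13.17, 13.21 and 13.09 on the lower arrays. The call of this list depended on the scaling: 2 were higher with array medians aligned and 1 without normalization, while 25 were higher without Rev-/- 3. The count of all genes higher went from 869 to 444, 284 and 1687 in these 3 settings.

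Sarcomere genes were lower on the upper arrays more often than higher. Of 35 measured 6 were lower (17.1%, against 7.73% of all genes) and 1 higher (2.86%, against 7.31%). Without Rev-/- 1 these were 6 (17.1%, nearer to the 11.6% of all genes) and 2 (5.71%, against 12.3%). Among the 6 lower, Tnnc1 and Myom2 were only 1.003-fold and 1.022-fold apart at the closest pair. Tcap, a titin-binding protein of the Z-disc, was at 13.13, 13.14 and 13.16 on the upper arrays and at 13.47, 13.46 and 13.53 on the lower arrays, and Actc1, cardiac α-actin, was at 12.83, 12.97 and 12.99 on the upper arrays and at 13.29, 13.22 and 13.17 on the lower arrays. Myh4, the fast myosin heavy chain of type IIb fibres, lay the other way at 11.31, 11.49 and 11.36 on the upper arrays and at 9.51, 10.59 and 10.80 on the lower arrays. Myom3, of the M-band, was lower with a gap of -0.44, while its other kept probe differed the opposite way. Of 10 satellite cell and myoblast genes 0 were higher and 2 lower, 1 and 2 without Rev-/- 1. Those lower were Myf6 and Msc, both helix-loop-helix factors, with gaps of -0.14 and -0.02. Myod1 and Myog, the factors of determination and differentiation, overlapped. Of 13 genes of muscle calcium handling 1 was higher and 1 lower, 3 and 1 without Rev-/- 1. Pvalb, a calcium buffer of fast fibres, was at 14.11, 14.23 and 14.42 on the upper arrays and at 13.42, 14.01 and 13.82 on the lower arrays, and Atp2a2, the slow fibre calcium pump, was lower with a gap of -0.07.

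Cdkn1a, which encodes the cell cycle inhibitor p21, was at 9.67 on Rev-/- 1, 9.77 on Rev-/- 3 and 9.76 on WT 3, against 10.52 on Rev-/- 2, 10.38 on WT 1 and 10.34 on WT 2. Its gap was -0.58, or -0.405 as the mean of its kept probes, and both other kept probes separated the arrays the same way. Of 31 genes of DNA replication and mitosis 2 were higher and 1 lower, but without Rev-/- 1 these were 2 and 8 (25.8% lower, against 11.6% of all genes). The atrophy list, which also holds Cdkn1a, gave 2 higher and 2 lower of 14, 3 and 4 without Rev-/- 1. Of 40 genes of the Wnt pathway, which the study followed in primary myoblasts, 0 were higher and 3 lower (7.5%, near the 7.73% of all genes). Without Rev-/- 1 these were 2 and 5. Wnt4, a secreted ligand, was at 7.95, 8.43 and 8.22 on the upper arrays and at 8.96, 8.68 and 8.69 on the lower arrays, and Apc, of the β-catenin destruction complex, and Nkd2, a pathway inhibitor, each had a gap of -0.09. Immediate early genes gave 2 higher and 2 lower of 22 (9.09% each), and 5 and 4 without Rev-/- 1 (22.7% and 18.2%). Glucocorticoid-responsive genes gave 3 higher and 1 lower of 17, 3 and 2 without it. Of the 3 higher on all 6 arrays, Errfi1 had a gap of 0.17, while Nfkbia and Sult1a1 were at most 1.002-fold apart at the closest pair. Interferon genes gave 3 higher and 1 lower of 20, 6 and 3 without Rev-/- 1. The 1 lower, Iigp1, was not above background on any upper array and passed the filter on dim probes through the lower arrays. The proteasome gave 0 higher and 1 lower of 27, 3 and 2 without Rev-/- 1. The shares of all genes beside these lists were 7.31% higher and 7.73% lower, and 12.3% and 11.6% without Rev-/- 1. Several of the lists lay near them, and counts this small are a description alone.

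The genes of widest gap lower on the upper arrays were thus of mixed function. Besides Med24, Calr, Dbp and Sqle, Cops8, of the COP9 signalosome, was lower by 1.5-fold between every pair of arrays, at 8.59, 8.89 and 8.80 on the upper arrays and at 9.69, 9.89 and 9.49 on the lower arrays. Ankrd1, a stress-responsive protein of muscle, Lrg1, a secreted glycoprotein, Gpt, alanine aminotransferase, and Tuba1a, an α-tubulin, had gaps of -0.49 to -0.42. Stk16, a kinase, had a gap of -0.50, and its other kept probe differed the opposite way.

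Of the 20 genes of widest gap lower on the upper arrays, 8 lay on chromosome 1. By gene order they were Coq10b, Stk16, Cops8, Thap4, Gin1, Dbi, Steap3 and Insig2, at places 247 to 640 of the 1204 coding genes there. Insig2, which retains the sterol sensor Scap in the endoplasmic reticulum, was at 8.59, 7.79 and 8.48 on the upper arrays and at 9.19, 8.97 and 9.08 on the lower arrays. Dbi, which binds acyl-CoA, was at 12.40, 12.62 and 12.72 on the upper arrays and at 13.20, 13.42 and 13.07 on the lower arrays. Between the first and the last of these genes 31 of 214 measured genes (14.5%) were lower and 10 higher, against 25 of 408 (6.13%) lower and 20 higher on the rest of the chromosome. Without Rev-/- 1, 40 were lower and 25 higher in the stretch, against 45 lower and 38 higher on the rest. The stretch was chosen after its values were seen, and the 3 other kept probes of Steap3 differed the opposite way, so these shares are a description alone. On the X chromosome 30 genes were higher and 50 lower of 385 (20.8%), against 15% of all genes, and without Rev-/- 1 these were 48 and 59; the part of the mixed Xist and Eif2s3y signals in this was not tested.

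**Figure D4:**
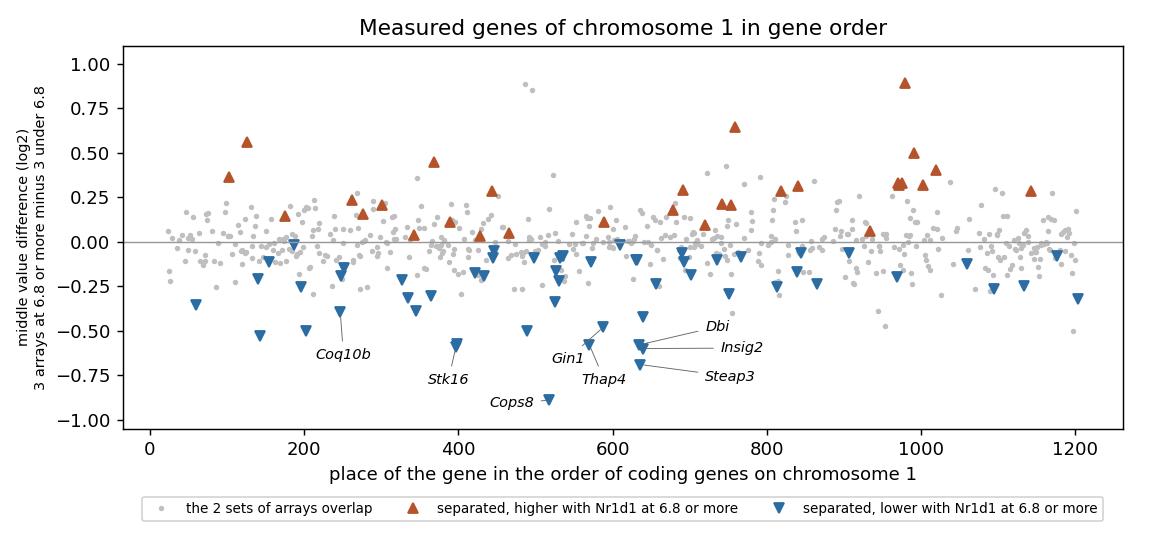
Middle upper array minus middle lower array (y axis, log2) of each measured gene of chromosome 1, by its place in the order of coding genes (x axis). Triangles are genes that separated the arrays, and the 8 named genes, from Coq10b at place 247 to Insig2 at place 640, are those among the 20 of widest gap lower on the upper arrays.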

How the data were processed

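Expression in 6 samples described as primary myoblasts was read on Illumina mouse bead arrays. By their methods, the authors used lumi for background subtraction and quantile normalization and limma for tests, and the submitters' processing notes also name GenomeStudio, all without version. The deposited values were intensities on a linear scale whose columns did not share 1 distribution, with medians of 98.4 to 107. A deposited table of 12 columns named by array position alone was not used.

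The intensities were quantile-normalized over 45281 probes and taken to log2 (R 4.3.3, limma 3.58.1). Of these probes, 34885 had 1 gene symbol, 18 several and 10378 none. Probes above the 95th percentile of background on at least 3 arrays were kept, 18607 with 1 symbol, and the brightest represented each of 11892 genes. The filter does not use the sides of the Nr1d1 threshold, but 37 separated genes, Nr1d1 among them, were above background on the upper arrays alone and 22 on the lower arrays alone. Labels were compared with lmFit and eBayes, Benjamini-Hochberg over kept probes with 1 symbol; an exact permutation test of 3 against 3 cannot go below 0.1. The number of arrays limits the precision, and the p-values measure the spread between these samples. Steps were tested on simulated data.

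The arrays, lists and rules were chosen with earlier results of these data known. Named genes were Nr1d1, the clock list, the 12 widest gaps in each direction, up to 4 separating genes per list, sex chromosome genes and defining markers. Alternatives were other normalizations, background, filters, probe rules, left-out arrays and, for labels, a replicate block, array weights and a trended prior.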

Additional observations from a re-analysis of the deposited data

How the results depend on the processing

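The same 3 arrays held the higher Nr1d1 values under each normalization and background correction tried. The number of genes higher on the upper arrays was 869, and it was 444 with array medians aligned and 284 without normalization. The number lower was 919, and it was 293 without normalization. The counts at 1.5-fold were 3 higher and 5 lower, and they were 13 and 8 after normexp background correction with an offset of 16, while 2 were lower without normalization. The share of higher among separated genes was 48.6%, with 39.7% when medians were aligned and 54.1% after cyclic loess. With 1 array left out, where fewer arrays overlap less often by construction, the genes higher ranged between 1311 and 1687, the genes lower between 1359 and 1687, and at 1.5-fold between 3 and 15 higher and between 5 and 8 lower. At 1.5-fold, 15 were higher without WT 2, 10 without Rev-/- 1, 7 without WT 3 and 5 without Rev-/- 3, and 8 were lower without Rev-/- 3. Labels gave 0 called genes by limma in all 17 settings, with 216 to 2723 genes under an unadjusted p of 0.05. The replicate number as a replicate block gave 0 called genes and 421 at that unadjusted p. Deviations of same-numbered arrays from their label means correlated at -0.14, 0.14 and 0.04. With 3 arrays per label these values cannot decide whether same-numbered samples were paired, and no pairing was stated. The gaps of Lyz2, Fcer1g, Med24, Calr, Dbp, Cops8, Sqle, Cdkn1a and Per1 kept their direction in all 13 settings, though without normalization those of Calr (-0.57) and Dbp (-0.53) were under 1.5-fold. The count of macrophage genes higher lay between 11 and 18. The causes of these shifts were not tested.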
